A study of Homo sapiens with 80 samples.

Results

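The metallothionein genes MT1A, MT1E, MT1F, MT1G, MT1H, MT1M, MT1X and MT2A and the zinc exporter gene SLC30A1 were followed through cardiomyocyte differentiation of human pluripotent stem cells. These 9 genes, of 43388 in the tables, were picked by name, with the levels of day 2 of the multi-omic experiment in view. That contrast is therefore given as a description only, with no test of these genes.

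Differentiation was started on day 0 with CHIR99021, which activates WNT signalling, in RPMI with insulin-free B27. IWP2, which blocks WNT secretion, was given on day 2 in WTC11 and on day 3, with conditioned medium, in the other lines. Cells were in mTeSR1 before day 0 and in B27 with insulin from day 6 (WTC11) or day 7 (H9 and IMR90-4). Flow cytometry for cardiac troponin T at day 16 put each differentiation in a high or a low purity class. RNA came from 2 collections, the multi-omic and the RNA-only experiment.

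The multi-omic experiment held 56 poly(A) libraries of the induced pluripotent line WTC11, taken on 8 days between day 0 and day 16. Its 25 high purity libraries were wells of 1 differentiation at passage 52, and its 31 low purity libraries were wells of 1 differentiation at passage 69, with 1 to 4 wells a day. Purity, passage and differentiation cannot be told apart there, and its p-values measure the spread between wells. The RNA-only experiment held 24 total RNA libraries, 1 for each differentiation and step. WTC11 (low purity at passage 69, high purity at passage 81) was sampled on days 0, 2, 4 and 6. H9, an embryonic line (low purity at passage 55, high purity at passage 58), and IMR90-4, an induced line (high purity at passage 55, low purity at passage 75), were sampled on days 0, 3, 5 and 7. The labels name no engineered allele in any group.

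The day and class of every multi-omic value rest on the column names of the deposited TPM table. The deposited count table of that experiment goes against them: of its 56 columns, 50 hold the reads of a TPM column named for another day or class, and 6 match no TPM column. By the names of the count columns, the 4 high and 4 low purity wells of day 0 would hold 45.0 to 131 and 71.3 to 207 CPM (reads scaled to the library's total) of the pluripotency markers NANOG, SOX2, LIN28A, DPPA4, TDGF1 and DNMT3B. They would hold 10269 to 16096 and 1418 to 2564 CPM of the cardiomyocyte markers TNNT2, MYH6, MYH7, ACTN2, NKX2-5 and MYL7. By the names of the TPM columns the day 0 wells hold 5751 to 5949 (high) and 5272 to 5448 CPM (low) of the pluripotency markers and at most 10.8 CPM of the cardiomyocyte markers. The TPM names, which give day 0 the markers of pluripotent cells, were used throughout. These markers bear on the day and not on the class of a column.

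Metallothioneins are small cysteine-rich proteins that bind zinc and copper and buffer the free metal in the cell. The transcription factor MTF1 senses free zinc and turns on the MT1 and MT2A genes and SLC30A1, whose protein exports zinc across the plasma membrane. Their transcripts are often read as a gauge of zinc available to the cell, and they also respond to other metals, oxidative stress and glucocorticoids.

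The 8 metallothionein genes lie side by side on chromosome 16 of GRCh38, at chr16:56608584-56684196, a stretch of 75613 bases. MT2A is the first gene of the stretch and MT1X the last. MT1G alone among them is on the minus strand. SLC30A1 is on the minus strand of chromosome 1, at chr1:211571568-211579161. The coding sequences of the 8 metallothionein genes, 183 bases each in GENCODE v29, were 88.5% to 95.1% identical over 28 pairs. Reads could be shared or misplaced between such near copies, so their TPM values were also summed. The split between single MT1 genes is less certain than the sum.

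Promoters are shown because 8 of the 9 genes fell past the limits given below from day 0 to day 4 in both classes. MT1A was the exception. A further reason is that the metal response element, the site MTF1 binds, is a known short motif. The 250 bases before the start site were in the RefSeq table used here (GRCh38.p14) for 4 of the 9 genes: MT2A, MT1H, MT1X and SLC30A1. The others, MT1A, MT1E, MT1F, MT1G and MT1M, are named only. Each sequence is on the gene's own strand, and capitals mark every match to the core motif TGCACNC or TGCGCNC on either strand. The windows lie at chr16:56608334-56608583 (MT2A), chr16:56669564-56669813 (MT1H), chr16:56682220-56682469 (MT1X) and chr1:211579162-211579411 (SLC30A1).
MT2A: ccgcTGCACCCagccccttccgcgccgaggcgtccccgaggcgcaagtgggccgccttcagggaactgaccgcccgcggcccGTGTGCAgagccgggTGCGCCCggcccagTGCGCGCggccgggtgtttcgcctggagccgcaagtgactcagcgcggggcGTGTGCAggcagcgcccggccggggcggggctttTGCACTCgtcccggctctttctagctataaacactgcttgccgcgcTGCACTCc
MT1H: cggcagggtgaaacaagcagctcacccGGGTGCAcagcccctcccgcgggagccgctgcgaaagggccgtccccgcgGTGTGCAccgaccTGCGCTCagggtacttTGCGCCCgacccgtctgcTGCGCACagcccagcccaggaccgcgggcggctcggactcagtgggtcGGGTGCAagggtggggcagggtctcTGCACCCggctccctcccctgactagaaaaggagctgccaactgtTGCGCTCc
MT1X: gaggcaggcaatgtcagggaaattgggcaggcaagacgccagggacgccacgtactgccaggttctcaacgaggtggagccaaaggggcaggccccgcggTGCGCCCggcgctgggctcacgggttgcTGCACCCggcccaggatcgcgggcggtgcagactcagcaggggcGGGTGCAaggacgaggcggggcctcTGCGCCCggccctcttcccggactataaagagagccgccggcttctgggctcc
SLC30A1: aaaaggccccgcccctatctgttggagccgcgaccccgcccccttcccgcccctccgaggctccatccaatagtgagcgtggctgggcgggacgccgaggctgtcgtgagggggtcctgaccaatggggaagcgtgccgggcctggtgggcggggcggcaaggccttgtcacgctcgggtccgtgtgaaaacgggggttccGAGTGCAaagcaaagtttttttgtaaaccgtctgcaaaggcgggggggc
The MT1H window held 8 matches, MT2A 7, MT1X 4 and SLC30A1 1. No matches overlapped. Of all 35116 RefSeq windows of this length, 24.8% held at least 1 match, 0.370% at least 4 and 0.0313% at least 7. A match describes the letters only and is not a measured binding site.

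In the pluripotent cells of day 0, metallothionein transcripts were abundant in every library. In the multi-omic experiment, the summed level was 213, 225, 195 and 192 TPM in the 4 high purity wells. It was 121, 122, 144 and 136 TPM in the 4 low purity wells. No well of one class reached the range of the other, with means of 206 ± 15.7 and 131 ± 11.4 TPM (SD, n = 4), a 1.58-fold difference. TPM is a level scaled for gene length and for the library's total. MT1X held the largest share of the sum, 41.0% in the high and 36.4% in the low purity class. MT1H held 21.3% and 15.6%, and MT2A, the ubiquitous member of the family, held 10.9% and 16.0%.

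Of the single genes, MT1G and MT1H differed between the classes on day 0. MT1G was at 32.7, 25.7, 19.7 and 23.9 TPM in the high purity wells and at 8.74, 6.42, 10.99 and 10.1 TPM in the low purity wells. MT1H was at 44.9, 58.0, 43.4 and 30.7 TPM in the high purity wells and at 26.8, 19.6, 19.1 and 15.0 TPM in the low purity wells. For both genes every high purity well was above every low purity well, as for MT1E and MT1X. Wells were so separated for 4 of the 9 genes, beside 16.7% of all genes, and in the other direction for MT1M alone, beside 5.16%. A gene was called where the Benjamini-Hochberg adjusted p of limma, over all 25664 genes tested, was under 0.05 and the log2 fold change was at least 1 in size. The log2 fold changes are of TPM scaled by TMM with a pseudocount of 1, which understates the change of low genes. By this rule 2 of the 9 genes were called, both higher in high purity: MT1G (log2 fold change 1.35 ± 0.21 SE, limma adjusted p = 1.15e-05) and MT1H (1.04 ± 0.29 SE, limma adjusted p = 0.0101). Of all genes tested, 1.07% were called on day 0, 0.242% higher and 0.826% lower. MT1H was not called without well 2 of the high purity class (log2 fold change 0.89, limma adjusted p = 0.0527) or without well 4 of the low purity class (0.91, limma adjusted p = 0.0453, under the fold limit). With a pseudocount of 0.1 neither was called (limma adjusted p of 0.131 for MT1G and 0.486 for MT1H), and MT1A was the 1 gene called (log2 fold change -2.90, limma adjusted p = 0.00950).

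MT1M had the opposite order on day 0, with means of 12.2 ± 1.68 TPM (high) and 15.9 ± 1.53 TPM (low; SD, n = 4). Its log2 fold change of -0.42 ± 0.16 SE was not called (limma adjusted p = 0.0834). MT1A was at the edge of detection, with no read in any high purity well and at most 3 reads in a low purity well. SLC30A1 was at 28.2, 27.1, 28.0 and 24.5 TPM in high purity and at 23.2, 21.4, 25.0 and 24.4 TPM in low purity wells, with overlapping ranges. Its log2 fold change of 0.13 ± 0.09 SE was not called (limma adjusted p = 0.412). The 6 pluripotency markers were all above 1 TPM in both classes. They summed to 5137 to 5380 TPM in the high purity class and to 4463 to 4677 TPM in the low purity class, and the part of this difference in the metallothionein values was not tested.

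**Figure D1:**
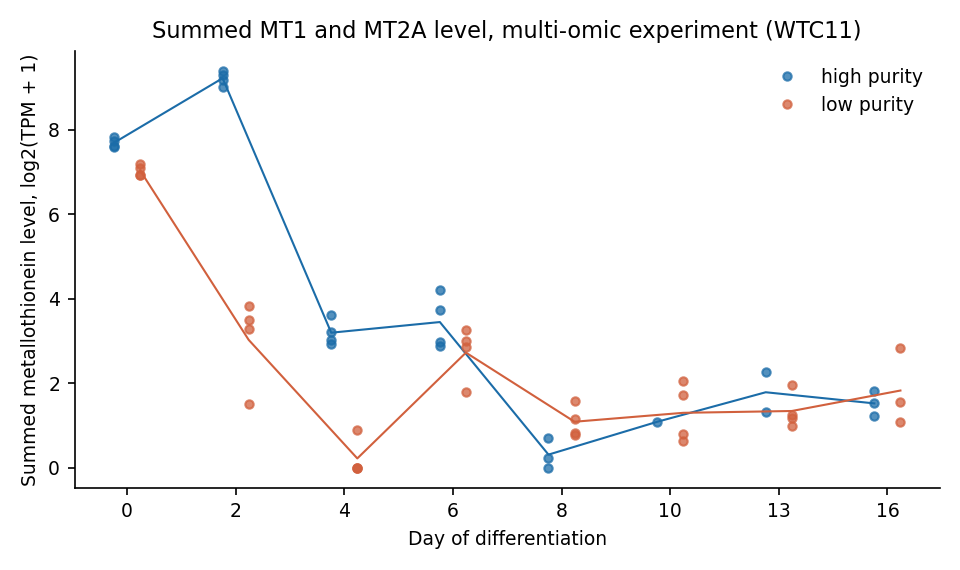
Summed TPM of the 8 metallothionein genes by day in the multi-omic experiment, as log2(TPM + 1); each point is a well and the lines join class means. On day 2 the 4 high purity wells sit at 513 to 674 TPM and the 4 low purity wells at 1.86 to 13.2 TPM.

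Day 2 of the multi-omic experiment is the contrast that chose the members. The summed metallothionein level was 513, 674, 581 and 624 TPM in the 4 high purity wells. It was 8.73, 13.2, 10.3 and 1.86 TPM in the 4 low purity wells. The class means were 598 ± 68.2 and 8.51 ± 4.80 TPM (SD, n = 4), a 70.3-fold difference. Against day 0, the mean was 2.90-fold higher in the high purity class and 15.4-fold lower in the low purity class. No well of day 2 overlapped the day 0 wells of its class.

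The single genes were not equal in this. MT1X was at 171, 237, 201 and 222 TPM in the high purity wells and at 4.05, 8.13, 5.62 and 1.86 TPM in the low purity wells. MT1H was at 141.6, 191, 154 and 169.8 TPM in high purity, and at 0, 1.03, 0.954 and 0 TPM in low purity. MT1G was at 100.3, 110.1, 98.9 and 112 TPM in high purity, and at 0, 1.01, 0.935 and 0 TPM in low purity. These 3 genes made up most of the sum in the high purity class, with shares of 34.7% for MT1X, 27.4% for MT1H and 17.7% for MT1G. MT1E, at 50.3 ± 7.19 TPM, MT2A, at 45.2 ± 5.30 TPM, and MT1F, at 23.0 ± 5.07 TPM (SD, n = 4), followed in the high purity wells. In the low purity wells MT1E was at 0.697 ± 0.47, MT2A at 1.49 ± 0.998 and MT1F at 0.423 ± 0.846 TPM (SD, n = 4). MT2A and MT1F were thus minor members of the sum at its peak.

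MT1M stood apart from its neighbours, and MT1A stayed near 0. MT1M was at 1.48, 3.35, 0.496 and 2.57 TPM in the high purity wells on day 2 and had 0 reads in all 4 low purity wells. Its level was thus below that of day 0 in both classes, while the 6 other abundant metallothionein genes were above it in high purity. MT1A was above 0 in 1 of the 8 wells, at 1.03 TPM. SLC30A1 was at 93.8, 107.8, 104 and 86.9 TPM in the high purity wells and at 37.3, 36.4, 41.6 and 37.7 TPM in the low purity wells. Its class means differed 2.57-fold, and they were 3.64-fold (high) and 1.63-fold (low) above those of day 0. In low purity the exporter was thus above day 0 while the metallothionein sum was below it.

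**Figure D2:**
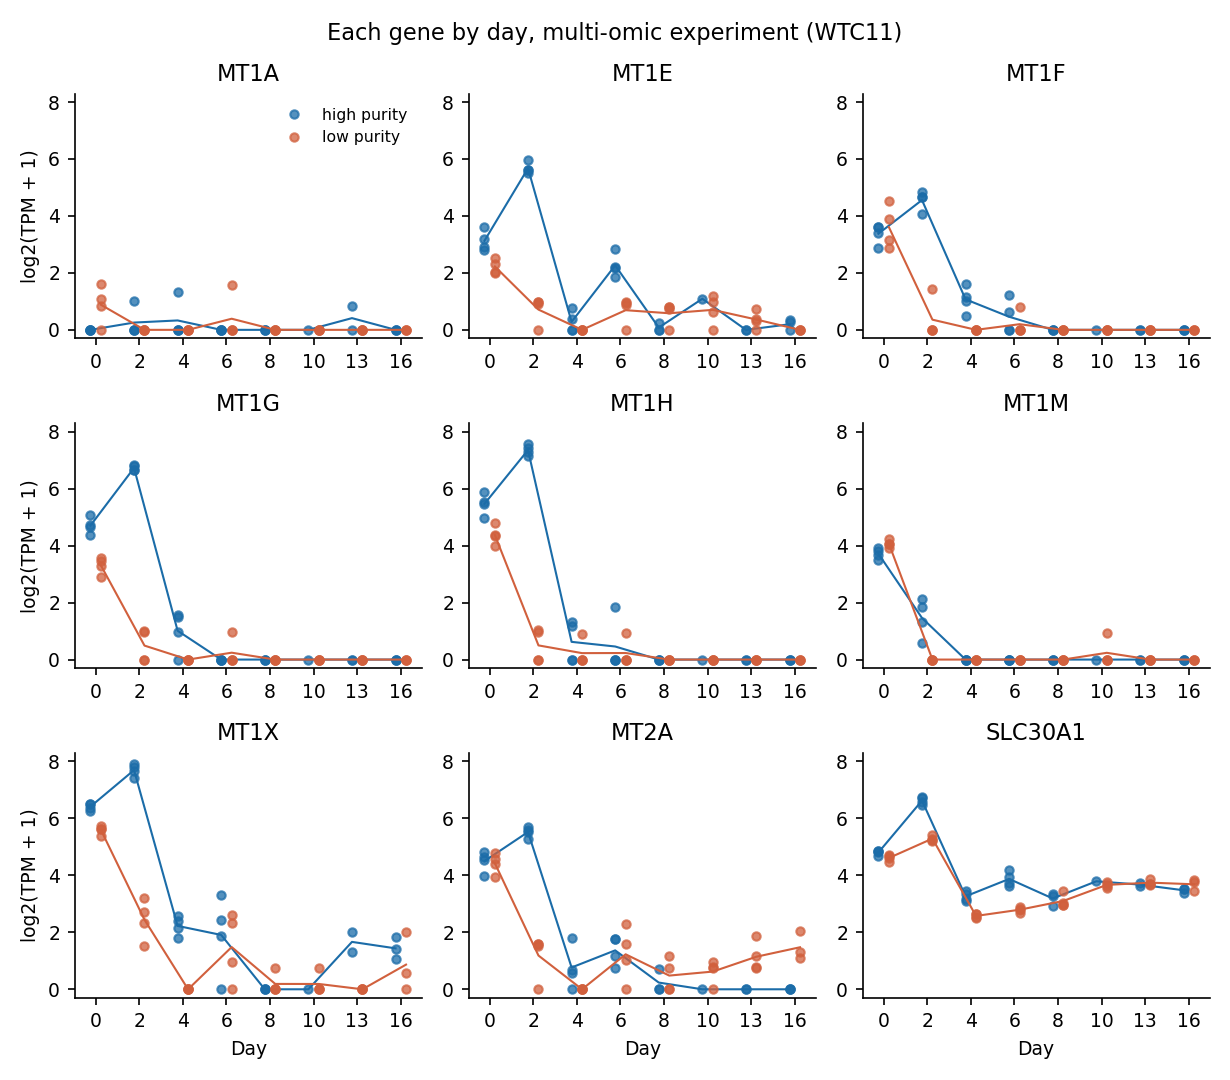
Each of the 9 genes by day in the multi-omic experiment, as log2(TPM + 1); points are wells and lines join the class means. MT1E, MT1F, MT1G, MT1H, MT1X, MT2A and SLC30A1 peak on day 2 in the high purity class, while MT1M is highest on day 0 in both classes.

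By day 4 both classes had lost nearly all metallothionein transcripts. The summed level was 8.23, 11.3, 7.19 and 6.68 TPM in the high purity wells, from 12 to 25 reads a well. In the low purity wells it was 0, 0, 0.872 and 0 TPM, from 1 read in all. From day 0 to day 4, 8 of the 9 genes were called lower in high purity, all but MT1A. Of all genes, 18.5% were called and 7.75% called lower. In low purity 8 genes were called lower as well, again all but MT1A, beside 22.2% called and 9.35% called lower. Among them MT1X fell by 4.32 ± 0.42 on the log2 scale in high purity (limma adjusted p = 4.48e-12) and by 5.74 ± 0.42 in low purity (limma adjusted p = 5.55e-16), with SE. SLC30A1 fell by 1.68 ± 0.09 (high, limma adjusted p = 3.77e-20) and by 2.24 ± 0.09 (low, limma adjusted p = 8.05e-25). MT1A had 0 reads on day 0 in high purity. In low purity it went from 5 reads over the wells to 0. Its log2 fold change there was -0.94 ± 0.26 SE (limma adjusted p = 0.00195), under the fold limit only. The median of the 9 genes was -3.80 (high) and -3.75 (low), against 0.04 and 0.06 over all genes tested. In bulk samples, fewer cells of a type and less RNA per cell cannot be told apart.

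On day 4, 2 of the 9 genes were called, both higher in high purity, beside 7.84% of all genes called, 3.62% higher and 4.22% lower. MT1X was at 3.42, 4.89, 2.46 and 4.32 TPM in high purity, and had 0 reads in all 4 low purity wells. A count of 0 over these wells allows up to 0.576 TPM (3 reads over the group), so MT1X was at least 6.54-fold higher. The fit gave 2.18 ± 0.42 SE on the log2 scale (limma adjusted p = 4.44e-05). MT1F rested on 1 to 4 reads a well in high purity and 0 in low purity, at least 2.45-fold higher. Its call (log2 fold change 1.04 ± 0.27 SE, limma adjusted p = 0.00153) was lost without well 2 or well 4 of the high purity class, at 0.99 and 0.87. MT1G (0.98 ± 0.21 SE, limma adjusted p = 0.000182) and SLC30A1 (0.69 ± 0.09 SE, limma adjusted p = 4.60e-08) passed the p limit but not the fold limit. SLC30A1 was at 9.94, 7.92, 9.09 and 7.67 TPM in high purity and at 5.25, 4.62, 4.76 and 5.25 TPM in low purity. The wells of MT1X, MT1F and SLC30A1 did not overlap, 3 of 9 beside 15.9% of all genes. Markers of other cell types differed too on this day. The 6 pluripotency markers summed to 1937 to 2566 TPM (high) and to 1011 to 1148 TPM (low). The 6 cardiomyocyte markers summed to 59.7 to 84.9 TPM (high) and to 1039 to 1196 TPM (low), and no gene of either list was at 0. Their part in the differences between the classes was not tested.

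On day 6, when insulin was added, the classes overlapped in their summed level, at 6.39 to 17.4 TPM in high and 2.45 to 8.62 TPM in low purity. There 2 genes were called, both higher in high purity and both without overlap of the wells (16.2% of all genes): MT1E and SLC30A1, beside 8.8% of all genes called, 3.61% higher and 5.19% lower. MT1E was at 6.14, 3.49, 2.63 and 3.56 TPM in high purity and at 0.900, 0, 0.826 and 0.954 TPM in low purity (log2 fold change 1.50 ± 0.22 SE, limma adjusted p = 4.21e-07). SLC30A1 was at 17.2, 14.4, 11.3 and 12.3 TPM in high purity and at 6.43, 5.96, 5.36 and 6.05 TPM in low purity. Its 2.33-fold difference in mean (log2 fold change 1.06 ± 0.09 SE, limma adjusted p = 7.40e-13) was just under the fold limit without well 1 of high purity, at 0.98. MT1E was the main metallothionein of the high purity class on this day together with MT1X, at 3.96 and 4.01 TPM.

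From day 8 on, metallothionein transcripts were close to the limit of detection. The summed level was at most 6.16 TPM in every later well, from at most 8 reads. On day 8, 0 of the 9 genes were called by limma, beside 12.2% of all genes (4.66% higher and 7.5% lower). By edgeR or DESeq2 on recovered reads 0 were called. SLC30A1 alone of the 9 was at an unadjusted limma p under 0.05, as were 12740 of all 25664 genes. It also passed the adjusted p limit but not the fold limit (log2 fold change 0.29 ± 0.10 SE, limma adjusted p = 0.0159). On day 10 there was 1 high purity well, so no comparison was made. On day 13, 2 genes were called, beside 10.8% of all genes (4.55% higher and 6.23% lower): MT1X higher in high purity and MT2A lower. MT1X rested on 6 reads against 0 and MT2A on 0 against 9, with limma adjusted p of 0.00615 and 0.0395. Leaving out well 3 of high purity ended both calls (0.122 and 0.148), and the call of MT2A also ended without well 2 of high purity or well 1 or 3 of low purity. On day 16, 1 gene was called, beside 13.4% of all genes (5.76% higher and 7.65% lower): MT2A, lower in high purity, with no read in any of the 3 high purity wells and 2 to 4 reads in each of the 3 low purity wells. A count of 0 allows up to 0.523 TPM there, so MT2A was at least 3.63-fold higher in the low purity wells (log2 fold change -1.53 ± 0.41 SE, limma adjusted p = 0.00188). Without well 3 of low purity MT1X was called as well, higher in high purity (1.33, limma adjusted p = 0.0351).

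Some lists of cell type markers lay far apart between the classes on these days. The 6 fibroblast and stromal markers COL1A1, COL1A2, COL3A1, LUM, DCN and POSTN summed to 618 to 830 (high) and 2939 to 4648 TPM (low) on day 6. They summed to 708 to 907 and 8489 to 10935 TPM on day 13, and to 496 to 605 and 9583 to 13053 TPM on day 16. The cardiomyocyte markers had the opposite order on day 16, at 9929 to 11973 (high) and 3603 to 5353 TPM (low), and on day 13, at 8198 to 8392 and 2458 to 4267 TPM. On day 6 they overlapped, at 2219 to 4338 and 1239 to 2545 TPM. The 4 epicardial markers WT1, TBX18, ALDH1A2 and TCF21 were at 3.95 to 4.70 and 63.6 to 118 TPM on day 6, and at 9.02 to 11.4 and 219 to 299 TPM on day 16. No marker of these lists was at 0 in all wells of a class on days 6, 13 or 16. Of 5 endothelial markers, 4 were called higher in high purity on day 6 and 0 lower. Of 6 endoderm and liver markers, 4 were called higher and 1 lower on day 6, beside 8.8% of all genes called. On days 13 and 16, 4 endothelial markers were called higher and 1 lower, beside 10.8% and 13.4% of all genes called. Their sum was lower in high purity, at 66.1 to 70.3 (high) and 152 to 206 TPM (low) on day 13. On day 16 it was at 41.7 to 48.3 and 120 to 190 TPM, with CD34 at 0 in all low purity wells. The endoderm and liver sums overlapped on day 16, at 74.8 to 479 (high) and 466 to 1247 TPM (low). The part of these cells in the values of MT1E, MT1X, MT2A and SLC30A1 on these days was not tested.

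SLC30A1 stayed well detected to the end. From day 4 to day 16 it rose in low purity by a log2 fold change of 1.25 ± 0.10 SE (limma adjusted p = 9.94e-15), from 4.97 to 12.0 TPM. Between the same days the fibroblast and stromal markers of that class went from 963 to 993 TPM to 9583 to 13053 TPM, and their part in this rise was not tested. MT2A was the other gene called in that comparison, where 2 of 9 rose beside 20.4% of all genes called, 11.3% higher and 9.12% lower. SLC30A1 went up in high purity too, from a mean of 8.65 TPM on day 4 to 10.2 TPM on day 16. On the TMM-scaled values of the fit the rise was 0.56 in log2 units (SE 0.10), short of the fold limit. It was smaller in the unscaled means just given. In unscaled TPM the wells overlapped, at 7.67 to 9.94 TPM on day 4 and 9.48 to 10.5 TPM on day 16. The p limit was met, with 5.84e-06 as the adjusted p from limma. Of all genes, 23.4% were called in high purity between these days, 12% higher and 11.4% lower. Of the 9 genes 1 was called there, MT1F lower. That call, too, rested on the 10 reads of MT1F on day 4, and was lost without well 2 or well 4 of that day. In order of their means, SLC30A1 levels in high purity ran from day 2 over day 0, then days 6, 10, 13, 16, 4 and 8. In low purity the order was day 2, day 0, then days 13, 16, 10, 8, 6 and 4. In both classes days 2 and 0 did not overlap with each other or with any later day, while days 10, 13 and 16 all lay within 9.48 to 13.8 TPM. Neighbouring days 4 and 8 overlapped in high purity, while days 4, 6 and 8 of low purity did not overlap.

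In the RNA-only experiment the summed day 0 level went with the cell line, while the levels of MT2A and SLC30A1 did not. Levels are not compared across the experiments, which used different kits and were scaled separately. The summed metallothionein level on day 0 was 2252 and 1817 TPM in H9 (high and low purity), 1652 and 1270.4 TPM in IMR90-4, and 793 and 832 TPM in WTC11. The 2 differentiations of a line stood next to each other in this order, for all 3 lines. MT1X held 70.9% and 68.1% of the sum in H9, 66.1% and 50.9% in IMR90-4, and 40.5% and 33.6% in WTC11 (high and low purity). In low purity WTC11 MT2A, with 40.2%, was ahead of it. MT1H was at 6.92 and 3.36 TPM in H9, against 91.0 and 109 TPM in IMR90-4 and 46.4 and 52.6 TPM in WTC11. MT1F showed the opposite order, at 149.7 and 139 TPM in H9 against 26.8 to 40.6 TPM in the other lines. The levels of MT1H and MT1F thus went with the line. These libraries hold 2 differentiations a line and were not tested for it. MT2A did not go with the line. It was at 298 and 284 TPM in H9, 256 and 294 TPM in IMR90-4 and 282 and 334 TPM in WTC11. The MT1X share of high purity IMR90-4 was nearer to H9 than to low purity IMR90-4. In WTC11, MT2A held 35.6% and 40.2% of the sum and MT1H 5.85% and 6.33% (high and low). In the multi-omic WTC11 wells of day 0, with another kit, they held 10.9% and 16.0%, and 21.3% and 15.6%. MT1X alone of the 9 genes was higher in high than in low purity in all 3 lines, beside 11.2% of all genes.

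**Figure D3:**
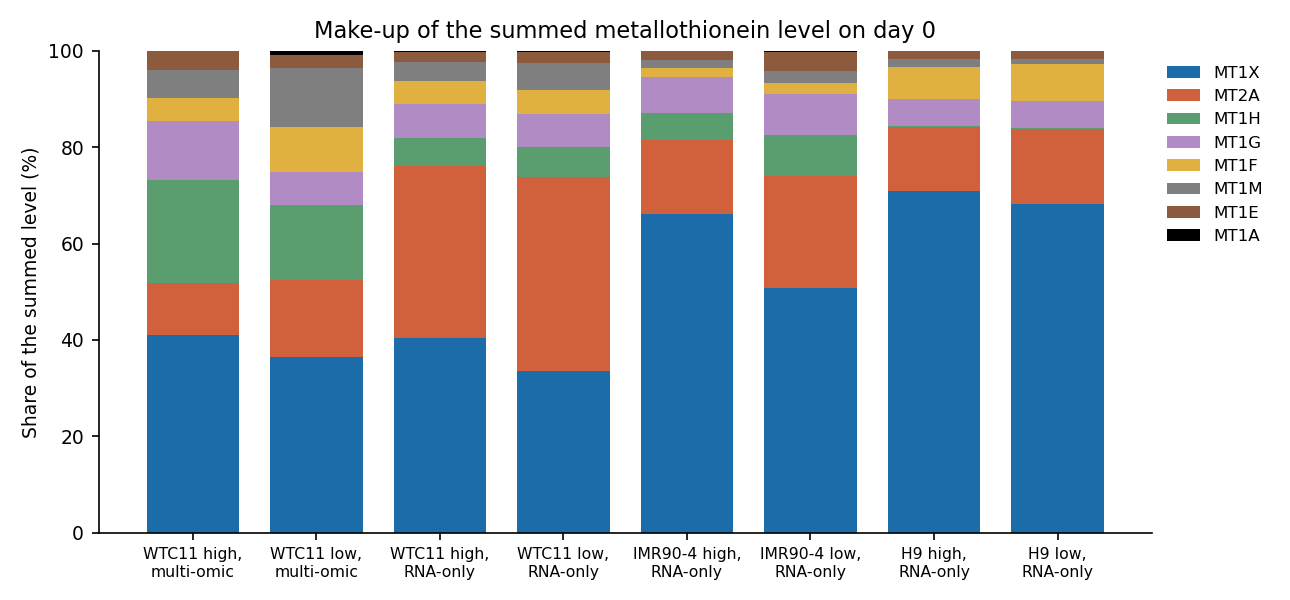
Share of each metallothionein gene in the summed TPM on day 0, by line, class and experiment; multi-omic bars are means of 4 wells and RNA-only bars are single libraries. MT1X takes 33.6% to 70.9%, and MT1H is nearly absent in H9, at 0.307% and 0.185%.

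At the next step the summed metallothionein level was far below day 0 in 5 of the 6 RNA-only differentiations. At day 2 or 3 the sum was 34.3 and 13.4 TPM in H9 (high and low purity), and 12.8 and 14.3 TPM in IMR90-4. It was 48.7 TPM in the high purity and 935 TPM in the low purity differentiation of WTC11. These are 65.6-fold, 136-fold, 129-fold and 88.6-fold below day 0 in H9 and IMR90-4, and 16.3-fold below in high purity WTC11. Low purity WTC11 alone stood above its day 0 level, 1.12-fold. In the edgeR fit over all 6 differentiations, with the differentiation as a block, 8 of the 9 genes fell from day 0 to day 2 or 3, beside 25% of all 23848 genes called, 14.3% higher and 10.7% lower. MT2A fell by 5.31 ± 0.72 on the log2 scale (SE, edgeR adjusted p = 3.67e-05) and MT1M fell by 6.71 ± 0.65 (SE, edgeR adjusted p = 2.12e-06). Without IMR90-4, MT1A, MT1G and MT1X were not called, which left 5 genes (edgeR adjusted p of 0.164, 0.0711 and 0.0508). Without H9, MT1E was not called (edgeR adjusted p = 0.0617).

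MT1A, MT1M and MT2A were lower than on day 0 in all 6 differentiations, low purity WTC11 included, 3 of 9 beside 26.3% of all genes. For MT1A this rests on few reads, in low purity WTC11 on 16 and then 10 (1.81 and 0.869 TPM). In low purity WTC11 MT1M went from 46.7 to 1.30 TPM and MT2A from 334 to 107 TPM. In the same libraries MT1X was at 279 and then 525 TPM, MT1G at 56.9 and then 150.2 TPM, and MT1E at 19.9 and then 49.1 TPM. MT1H, at 52.6 and 57.5 TPM, and MT1F, at 40.6 and 43.6 TPM, were close to their day 0 levels. The share of MT2A in the sum accordingly went from 40.2% to 11.5% in this differentiation. MT1M was also below day 0 in the multi-omic high purity wells of day 2, where its neighbours were above.

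**Figure D4:**
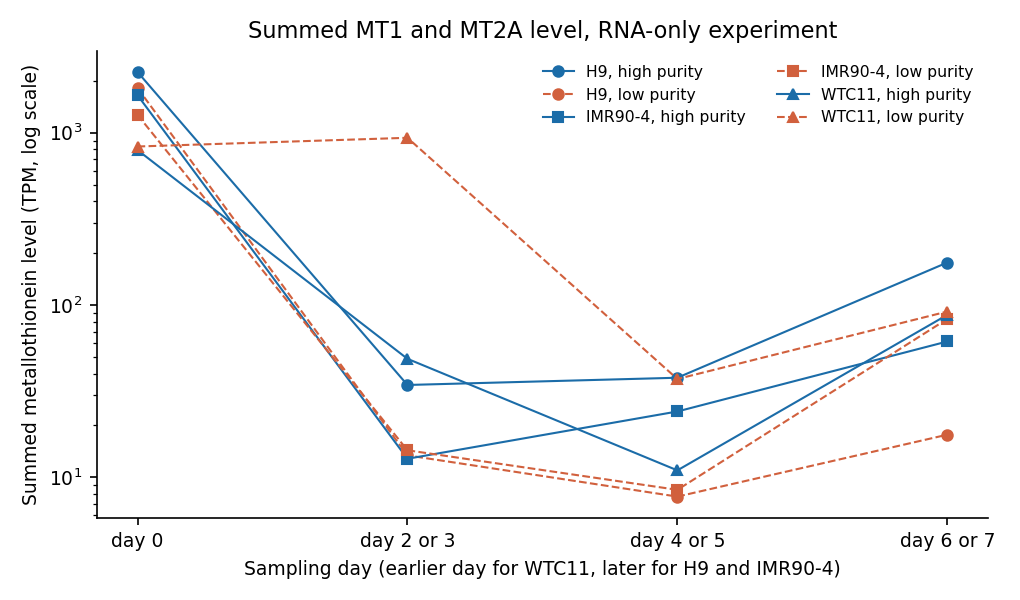
Summed TPM of the 8 metallothionein genes on a log scale in the 6 RNA-only differentiations, 1 library a point; WTC11 was sampled on the earlier day of each pair. Low purity WTC11 stays at 832 to 935 TPM up to day 2 and reaches 37.2 TPM on day 4, while the other 5 are at 12.8 to 48.7 TPM by day 2 or 3.

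No difference between high and low purity was called in the RNA-only experiment by edgeR, where 0 of the 9 genes were called at each of the 4 steps, beside 0% of all genes. At an unadjusted p under 0.05 there were 0 of the 9 on day 0, 1 at day 2 or 3, 0 at day 4 or 5 and 0 at day 6 or 7, beside 354, 1896, 1798 and 2876 of all 23848 genes. DESeq2 called 0, 1, 0 and 0 of the 9, beside 0%, 0.207%, 0.15% and 0.543% of all 37221 genes it was run on. The gene in question was MT1H at day 2 or 3, with a log2 fold change of -5.20 ± 1.02 SE, lower in high purity (edgeR adjusted p = 0.385). DESeq2 gave -4.21 (adjusted p = 0.0312) for MT1H, and none of the other alternatives run called it. MT1H was at 0 and 0 TPM in H9, at 0.0883 and 0.538 TPM in IMR90-4, and at 1.12 and 57.5 TPM in WTC11 (high and low purity), so the difference was largest in WTC11. Without WTC11 its log2 fold change was -2.33 (edgeR adjusted p = 0.859).

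Leaving out WTC11 also turned the fitted direction of most other metallothionein genes at this step. Over all 3 lines 7 of the 9 genes were fitted lower in high purity, and without WTC11 6 of these 7 were fitted higher. MT1G went from -2.39 ± 1.48 SE to 0.29, and MT2A from -1.63 ± 1.01 SE to 0.16, on the log2 scale. None of these values was called. The difference between the classes in the change from day 0 to day 2 or 3 was tested as well. By edgeR 0 of the 9 genes were called, beside 0% of all genes, with 0 at an unadjusted p under 0.05 and 0 by DESeq2.

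WTC11 on day 2 thus had opposite orders in the experiments. In the multi-omic wells the high purity differentiation (passage 52) had the 70.3-fold higher summed level. In the RNA-only libraries the low purity differentiation (passage 69) had 935 TPM against 48.7 TPM in the high purity one (passage 81), a 19.2-fold difference. MT1X alone had 6162 reads in that low purity library and 214 reads in the high purity one. The RNA-only values have no replicate for this line, and the reversal was not tested. The labels of these libraries were taken as deposited, and whether one of them is exchanged was not tested.

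Pluripotency markers lay in the same order as the metallothioneins on this day. In the multi-omic experiment the 6 markers summed to 2218 to 2501 TPM in the high purity class and to 1292 to 1344 TPM in the low purity class. In the RNA-only WTC11 libraries the sums were 880.0 TPM (high) and 1416 TPM (low), and no marker was at 0 in either experiment. The 5 primitive streak markers TBXT, EOMES, MIXL1, MESP1 and GSC summed to 1684 to 2062 and 1588 to 1724 TPM in the multi-omic wells (high and low) and to 769 and 475 TPM in the RNA-only libraries (high and low), with none at 0. The part of these cells in the metallothionein result was not tested.

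Later steps of the RNA-only experiment brought a partial return. From day 2 or 3 to day 4 or 5, 1 of the 9 genes was called, beside 5.97% of all genes (3.33% higher and 2.65% lower): SLC30A1 fell by 1.15 ± 0.35 (SE, edgeR adjusted p = 0.0425). That call was lost when any 1 line was left out. The log2 fold change was -1.46 without H9 and -1.57 without IMR90-4 (edgeR adjusted p of 0.0744 and 0.154), and -0.38 without WTC11 (edgeR adjusted p = 0.197), so the size of the fall rests on WTC11. Without IMR90-4, 0 of all 23851 genes tested were called at this step. From day 4 or 5 to day 6 or 7, MT2A and MT1E rose, 2 of the 9, beside 2.99% of all genes called, 2.28% higher and 0.713% lower. MT1E went from 0.635 to 18.9 TPM and from 0.0943 to 0.563 TPM in H9 (high, then low purity), and from 0.586 to 9.07 and 0.124 to 14.6 TPM in IMR90-4. In WTC11 it went from 0.490 to 9.97 and from 1.45 to 9.21 TPM. It was higher in 6 of 6 differentiations (log2 fold change 4.39 ± 0.95 SE, edgeR adjusted p = 0.0175). MT2A was higher in 6 of 6 as well (3.00 ± 0.69 SE, edgeR adjusted p = 0.0233). At this step 5 of the 9 genes, MT1E, MT1F, MT1X, MT2A and SLC30A1, were higher in all 6 differentiations, beside 13.3% of all genes. Neither MT1E nor MT2A was called without H9 or without IMR90-4, or in the fit with no block (edgeR adjusted p of 0.0527 to 0.363 for MT1E and 0.112 to 0.353 for MT2A). Without IMR90-4 no gene of all 23851 tested was called at this step. By day 6 or 7 the summed level was 61.4 to 176 TPM in 5 differentiations and 17.7 TPM in low purity H9, all below day 0. MT1E also differed most among the metallothioneins on day 6 of the multi-omic experiment.

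SLC30A1 ranged from 1.49 to 14.4 TPM over the RNA-only libraries, and WTC11 stood apart at the second step. In H9 it was at 7.65, 5.25, 3.68 and 5.98 TPM in high purity over the 4 steps, and at 9.63, 3.32, 2.06 and 3.25 TPM in low purity. In IMR90-4 it was at 9.88, 4.17, 3.87 and 5.53 TPM in high purity, and at 9.51, 4.69, 3.67 and 5.62 TPM in low purity. In WTC11 it was at 8.47, 14.4, 1.49 and 4.86 TPM in high purity, and at 4.53, 9.79, 3.03 and 4.73 TPM in low purity. The second value was above the first in both WTC11 differentiations and below it in the other 4. The WTC11 libraries of this step are from day 2 and those of the other lines from day 3. Over all lines the change from day 0 was not called (log2 fold change -0.17 ± 0.35 SE, edgeR adjusted p = 0.711), and the fitted sign turned without H9 (0.28) or without IMR90-4 (0.23). No difference between the classes was called at day 2 or 3 (0.31 ± 0.32 SE, edgeR adjusted p = 0.852). In the WTC11 libraries of day 2 the exporter was 1.47-fold higher in high purity, the reverse of the metallothionein order.

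**Figure D5:**
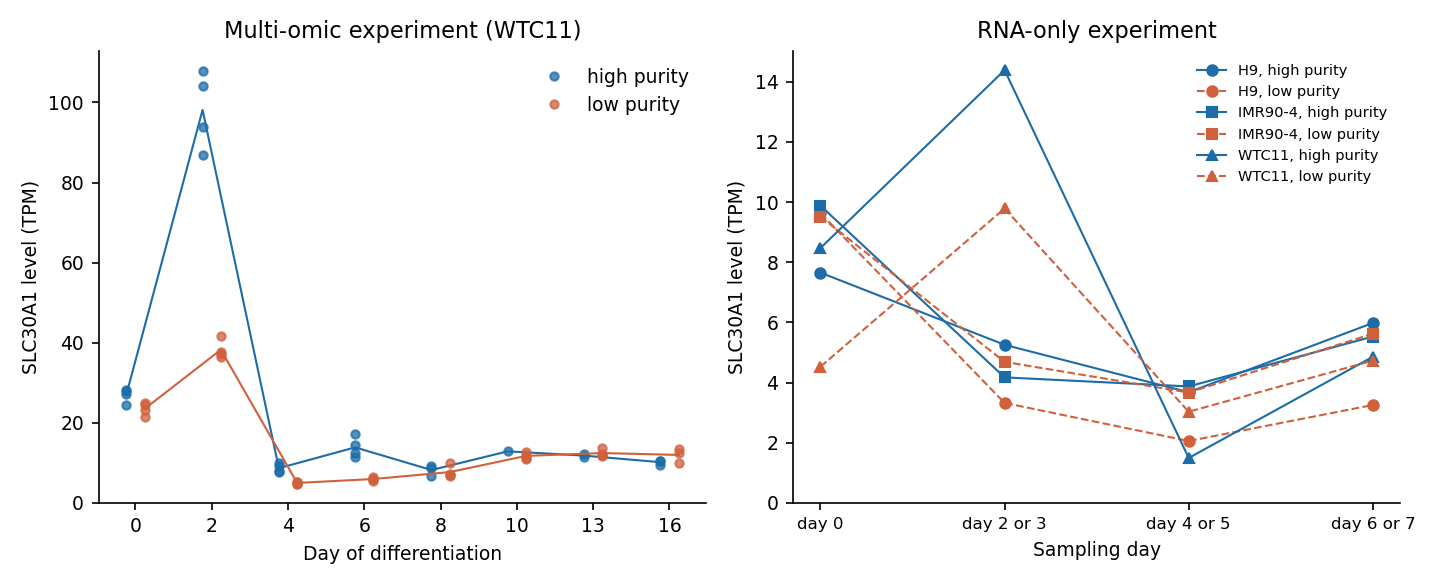
SLC30A1 in TPM by day in the multi-omic wells (left, lines join class means) and in the 6 RNA-only differentiations (right, 1 library a point). In WTC11 the level is highest on day 2 in both experiments and both classes, while in H9 and IMR90-4 it is highest on day 0.

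The other genes of zinc handling were read beside the share of all genes called. The list of zinc transporters with MTF1 held 24 genes, 21 of them tested in the multi-omic experiment. None was called on day 0, day 2 or day 4 between the classes, beside 1.07%, 5.32% and 7.84% of all genes, with medians of 0.07, 0.11 and -0.02 on the log2 scale against 0.01, 0 and 0 over all genes. On days 6, 8 and 13 SLC39A5, a zinc importer, was higher in high purity (log2 fold changes of 1.35, 1.55 and 1.07). On days 13 and 16 SLC30A3, a transporter of zinc into vesicles, was higher, and the importer SLC39A6 was lower (log2 fold change -1.22 ± 0.06 SE on day 16, limma adjusted p = 2.13e-20). On days 6, 8, 13 and 16, 1, 1, 2 and 1 of the 21 genes were thus higher, and 0, 0, 1 and 1 lower. Of all genes, 8.8%, 12.2%, 10.8% and 13.4% were called on those days. From day 0 to day 4 the same 4 genes were called in both classes: SLC30A3, SLC30A4 and SLC39A4 rose and SLC39A14 fell, 4 of 21 beside 18.5% (high) and 22.2% (low) of all genes. SLC39A14, an importer of zinc, iron and manganese, fell by 1.54 in high and by 1.72 in low purity. From day 4 to day 16 SLC39A1, SLC39A4 and SLC39A14 fell in high purity. In low purity SLC30A4 rose and SLC30A3 and SLC39A4 fell over the same days. These are 3 of 21 genes in each class, beside 23.4% (high) and 20.4% (low) of all genes. MTF1 itself was at 12.3 ± 0.918 and 12.7 ± 0.894 TPM on day 0 and at 14.8 ± 1.80 and 14.5 ± 1.18 TPM on day 2 (high and low, SD, n = 4), with standard deviations larger than the differences between the classes.

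In the RNA-only experiment, 22 genes of this list were tested from day 0 to day 2 or 3. SLC30A4, SLC39A4 and SLC39A8 rose, and SLC30A10, SLC39A3 and SLC39A14 fell, 6 of 22 beside 25% of all genes. SLC30A4, an exporter into endosomal vesicles, rose by a log2 fold change of 6.42 ± 0.41 SE (edgeR adjusted p = 6.48e-08), from at most 0.0380 TPM in every library to at least 0.668 TPM. SLC39A14 fell there as in both multi-omic classes, by 1.21 ± 0.22 (SE, edgeR adjusted p = 0.000337). Later in that experiment SLC30A2 and SLC30A3 rose and SLC39A8 fell from day 2 or 3 to day 4 or 5, and SLC30A8 rose from day 4 or 5 to day 6 or 7. Of all genes, 5.97% and 2.99% were called at these steps. Of 12 further metallothionein genes and pseudogenes, 2 were tested in the multi-omic and 4 in the RNA-only experiment. MT1L was higher in high purity on day 0 (log2 fold change 1.14 ± 0.29 SE, limma adjusted p = 0.00485), and fell in high purity from day 0 to day 4 (-1.36). From day 0 to day 2 or 3 in the RNA-only experiment 3 of the 4 were called: MT1L (-4.09), MT1JP (-3.94) and MT1IP (-4.32 on the log2 scale) fell. These are near copies of the MT1 members and can take up their reads. MT1HL1 is another such copy, called higher in high purity on day 13, beside 10.8% of all genes called and 4.55% called higher. Its day 2 value is not read as a test, since that contrast chose the members it resembles.

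Genes that answer to other known inducers of metallothioneins were described by list. None of 9 copper handling genes, 13 genes of the NRF2 oxidative stress response or 10 heat shock genes tested was called between the classes on day 4. Their medians were 0.02, -0.15 and -0.23 on the log2 scale against 0 over all genes. Of 10 glucocorticoid target genes FKBP5 was higher in high purity (1.38) and CEBPD lower (-2.55 on the log2 scale). From day 0 to day 4, 8 of 13 NRF2 genes fell in each class, with medians of -1.30 (high) and -1.15 (low) against 0.04 and 0.06 over all genes. Over the same days 4 of 10 heat shock genes fell in each class, and 1, BAG3, rose in low purity. Of 10 glucocorticoid targets 1 rose and 1 fell in high purity, and 2 rose and 1 fell in low purity. These counts stand beside 18.5% (high) and 22.2% (low) of all genes called. From day 4 to day 16, 5 of 10 glucocorticoid targets rose in high and 7 in low purity, and 0 fell. Of all genes, 12% (high) and 11.3% (low) were called higher over those days. On day 16, 3 of the 10 were higher and 4 lower in high purity, beside 13.4% of all genes called. The part of this in the values of MT2A and SLC30A1 was not tested. On day 2, 0 of 13 NRF2 genes were called, and 2 of 10 heat shock genes, HSPH1 (-1.15) and DNAJA1 (-1.37), were lower in high purity. Of 10 glucocorticoid targets TSC22D3 was higher (1.17), beside 5.32% of all genes called, 2.25% higher and 3.07% lower. These 3 genes are named after their values were seen.

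The genes whose pattern was most like the summed metallothionein level were sought among 8917 genes with a mean of at least 5 TPM in both experiments. The measure was Pearson's correlation of log2(TPM + 1) over the 56 multi-omic libraries, which share 2 differentiations, so it is a description. The 8 nearest genes outside the family were NANOG (0.896), NLE1 (0.887), NPM1 (0.885), LOC105375710 (0.884), NANOGP8 (0.883), MIAT (0.882), LARGE2 (0.878) and SNHG5 (0.874). SLC30A1 ranked 137 with 0.795. Over the 24 RNA-only libraries these 8 genes had values from 0.619 (SNHG5) to 0.865 (NANOGP8), with 0.821 for NANOG and 0.736 for SLC30A1. Their ranks there ran from 119 (NANOGP8) to 3197 (SNHG5) of 8917, with 422 for NANOG and 1622 for SLC30A1, so the nearest genes of one experiment were not those of the other. NANOG, a core pluripotency factor, had day 2 means of 46.1 ± 2.12 TPM (high) and 8.96 ± 2.39 TPM (low; SD, n = 4). In the RNA-only WTC11 libraries of that day it stood at 20.3 TPM (high) and 64.0 TPM (low), so its order turned with that of the metallothioneins. Unlike them, it was below its day 0 level of 102 ± 4.38 TPM in the high purity wells (SD, n = 4).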

How the data were processed

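RNA of 56 multi-omic (poly(A)) and 24 RNA-only (total RNA) libraries was analysed. Reads were aligned with STAR 2.5.3a and counted with featureCounts 2.0.3 on hg38, per the submitters' processing notes. The authors deposited 2 tables for each experiment. One holds raw read counts per gene, not normalized. The other holds TPM, and how it was computed is not given in the sources used here. Lines of 6 genes were broken in the RNA-only counts and left out.

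Reads computed from TPM were compared with the count columns by name. All 24 RNA-only columns matched their namesakes. None (0) of the 56 multi-omic columns did, 50 matched a column named otherwise and 6 matched no column. The multi-omic comparisons used the deposited TPM and its column names, on which the day and class of each value rest. TPM was multiplied by gene lengths solved from the RNA-only tables and divided by each library's value for a single read. This gave whole reads (within 0.01) for 100% of nonzero values in 37194 genes. Library depth was 6579715 to 18143597 reads (multi-omic) and 17990882 to 40357968 reads (RNA-only). Limits from a count of 0 (3 reads) cover counting error only.

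Multi-omic values were tested with limma 3.58.1 (trend) on log2(TPM scaled by TMM + 1), for the 25664 genes that reached 1 TPM in 3 or more libraries, with 16 group means and 40 residual degrees of freedom. RNA-only counts were tested with edgeR 4.0.16 (quasi-likelihood) for 23848 genes, with the line (classes) or the differentiation (steps) as a block. All 9 members passed both filters. A call needs a Benjamini-Hochberg adjusted p under 0.05 over all genes and a log2 fold change of at least 1 in size. The code was tested on simulated data. The summed metallothionein level was not tested.

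All 9 members are named. Other genes are the 8 nearest in pattern, the called genes of 2 metal lists, and at most 4 genes of each other list by their day 4 change. Members and lists were chosen with earlier results of these data known. The alternatives were other scalings (RLE, none for TPM), pseudocount 0.1, no filter, edgeR and DESeq2 1.42.0 on recovered reads or counts, limma on RNA-only TPM, each replicate left out, the block added or dropped, and no fold limit. Well numbers, as labelled, did not pair the wells: over 353 pairs with the same number the median correlation of deviations was 0.000821 and the lowest -0.0628. Promoter sequences are from RefSeq (GRCh38.p14).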

Additional observations from a re-analysis of the deposited data

Results flagged for a closer look

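In SLC30A1, 2 wells stood away from the others of their group. In the low purity class of the multi-omic experiment 1 well of day 8 was at 10.0 TPM, with the 3 others at 6.75 to 7.08 TPM. In the same class 1 well of day 13 was at 13.8 TPM, with the 3 others at 11.8 to 12.1 TPM. The gap to the nearest well was 0.898 and 0.852 of the group's range, above Dixon's critical value for 4 wells. Of 41 groups examined, chance would mark about 1 in 20.

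The summed metallothionein level of WTC11 on day 2 had opposite orders in the experiments. It was 19.2-fold higher in low purity in the RNA-only libraries, while every high purity well was above every low purity well in the multi-omic experiment. The difference between the experiments was not tested, and the passages and the library kits differ. Whether a label of these libraries is exchanged was not tested.

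From day 0 to day 2 of the multi-omic experiment the summed level was 2.90-fold higher in the high purity class, where all wells of day 2 were above those of day 0. In the low purity class all wells of day 2 were below those of day 0. This difference between the classes was not tested, since the day 2 levels chose the genes.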

How the results depend on the processing

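Over all alternatives, 189 recomputed counts of called members equalled the count of the fit as designed or stayed within 1.5 times of it, and 36 moved. On day 0 (2 called) the count was 1 with a pseudocount of 0.1 and 4 with no fold limit, beside 3.04% and 14.6% of all genes. On day 4 (2 called) it was 4 with a pseudocount of 0.1, 4 with edgeR on recovered reads and 4 with no fold limit, beside 13.5%, 15.2% and 36.8%. On day 8 (0 called) it was 1 with no fold limit, beside 44.1%. On day 13 (2 called) it was 1 with no filter on low values, 1 with edgeR and 1 with DESeq2 on recovered reads, beside 7.52%, 15.5% and 9.95%. For high purity from day 4 to day 16 (1 called) it was 2 without scaling, 2 with DESeq2, 3 with edgeR, 3 with a pseudocount of 0.1 and 3 with no fold limit, beside 25.2%, 23.7%, 35.3%, 31.5% and 55.4%. With the well number as a replicate block it was 2 there, beside 23.3%, and the block changed no other count by more than 1.5 times.

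For the RNA-only class comparison at day 2 or 3 (0 called), DESeq2 called 1, beside 0.207% of all genes. From day 2 or 3 to day 4 or 5 (1 called), DESeq2 called 5, and no filter or limma on TPM called 0, beside 5.37%, 3.48% and 2.79%. From day 4 or 5 to day 6 or 7 (2 called), the fit with no replicate block called 0, beside 1.46%.

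With each replicate left out in turn, the count ranged from 1 to 3 on day 0, 1 to 2 on day 4, 1 to 3 on day 6, 0 to 2 on day 13 and 1 to 2 on day 16. For the change of high purity wells between days 4 and 16 it was 0 or 1. In the RNA-only changes it ranged from 5 to 8, was 0 throughout, and ranged from 0 to 2, in order of steps. On day 6 the lowest count came without well 1 of high purity, and on day 13 without well 3 of high purity.

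In the class comparison at day 2 or 3, 6 of the 7 genes fitted lower in high purity were fitted higher without WTC11, none of them called. Leaving out each line gave -4.93 to 0.29 for MT1G and -3.57 to 0.16 for MT2A on the log2 scale, the highest without WTC11. For SLC30A1 from day 0 to day 2 or 3, leaving out each line gave -0.89 to 0.28, with 0.28 without H9 and 0.23 without IMR90-4. Metallothionein values from day 4 on rest on few reads in the multi-omic experiment, so small differences were not detectable at this depth. The cause of these changes was not tested.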
